A study of Rattus norvegicus with 8 samples.

Results

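The genes described here are the secreted Wnt ligands, their Frizzled receptors and co-receptors, the secreted antagonists and the intracellular components that carry or restrain the signal. They were followed in primary vascular smooth muscle cells grown in culture from thoracic aortas of rats, strain Sprague-Dawley. Of 46 listed symbols, 38 had a listed locus whose RefSeq accessions map to exactly that symbol, out of 14767 symbols with such a locus, and the locus with the highest mean RNA level stood for each symbol. Wnt2, Fzd3, Fzd7, Sfrp1, Wif1, Nkd1, Tcf7 and Tcf7l2 had no such locus, so their RNA and marks were not analysed here.

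Control cells had no treatment. Treated cells received 0.1 uM angiotensin II (AngII), a vasoconstrictor peptide hormone, for 3 h. Serum starvation overnight is stated for the treated cells and is not stated for the controls, so that starvation and AngII cannot be told apart. The series holds 8 samples, and RNA-seq and ChIP-seq of 2 histone marks were used with 1 library per condition and assay; the 2 input libraries were not used here. With 1 library per condition there is no test and no p-value, and no difference below has a replicate check. How many animals or cultures a library came from is not stated in the labels.

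Wnt ligands are lipid-modified secreted proteins that bind Frizzled receptors, which span the membrane like G-protein-coupled receptors. With the co-receptors Lrp5 or Lrp6 they stop the destruction complex of Axin and Apc from degrading beta-catenin, which then acts with TCF/LEF factors on target genes. Other Wnt ligands, Wnt5a among them, act mainly through Ror and Ryk receptors and do not need beta-catenin. In arteries the pathway is known for roles in smooth muscle proliferation, migration and survival.

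RNA level is given in FPKM, fragments scaled to transcript length and to library size, so that levels can be compared between genes. Each FPKM value was deposited with a lower and an upper bound, which are model errors and lie at a median of 42.1% of the estimate on either side at FPKM of 10 or more. Log2 ratios were taken as AngII over control after adding 1 FPKM to both levels, so low levels give muted ratios. A gene was called expressed at 1 FPKM or more in at least 1 library. A value of 0 in the table need not mean that RNA was absent: Rhoa, a GTPase that every cell uses, is listed at 0 in both libraries. The median log2 ratio of all 8354 expressed symbols was -0.22, and scaling the AngII values by 1.21 to centre the median locus moved it to 0.03.

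Smooth muscle markers were present in both libraries, with 6 of 7 measured markers expressed and summed levels of 5497 FPKM without AngII and 5726 FPKM with AngII. Tagln alone supplied 5103 and 5244 FPKM of these sums. The other expressed markers ranged in control from 6.62 FPKM (Smtn) to 228 FPKM (Cnn1), and Des was under 1 FPKM. None of 5 endothelial markers and none of 3 adipocyte markers was expressed, with highest levels of 0.367 and 0.0377 FPKM. Of 6 leukocyte markers Cd14 and Cd74 were expressed, while Ptprc and Cd3e were listed at 0 in both libraries. Adventitial fibroblast markers were present, with 6 of 7 expressed and summed levels of 197 FPKM without AngII and 152 FPKM with AngII. Lum alone supplied 140 and 111 FPKM of these sums, and Dcn was under 1 FPKM. The part of fibroblasts in the differences below was not tested. In bulk RNA, fewer cells of a type and less RNA per cell cannot be told apart.

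Promoter sequences of 4 Frizzled genes are shown because Fzd1 and Fzd8 were among the receptors that stood lower after AngII, while Fzd5 stood higher and Fzd4 lay between. They are the 250 bases before the transcript start in RefSeq on the assembly GRCr8, written 5' to 3' on the gene's strand. That assembly is not the one of the deposited files (rn4), and the sequences were matched by symbol. Capitals mark letters of any of 7 motifs searched on both strands: the TCF/LEF core (CTTTGA or CTTTGT), the AP-1 site (TGACTCA or TGAGTCA), the cyclic AMP response element (TGACGTCA), the Egr site (GCGGGGGCG or GCGTGGGCG), the CArG box of serum response factor, the TATA box (TATAAA), and the GC box bound by Sp factors (GGGCGG).
Fzd1, chr4:30264824-30265073 (+ strand): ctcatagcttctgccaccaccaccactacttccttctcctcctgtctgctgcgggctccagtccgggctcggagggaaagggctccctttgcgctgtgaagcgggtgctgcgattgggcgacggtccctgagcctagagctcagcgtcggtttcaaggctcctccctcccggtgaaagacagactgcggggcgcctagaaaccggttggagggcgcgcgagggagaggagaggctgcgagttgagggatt
Fzd8, chr17:62009744-62009993 (+ strand): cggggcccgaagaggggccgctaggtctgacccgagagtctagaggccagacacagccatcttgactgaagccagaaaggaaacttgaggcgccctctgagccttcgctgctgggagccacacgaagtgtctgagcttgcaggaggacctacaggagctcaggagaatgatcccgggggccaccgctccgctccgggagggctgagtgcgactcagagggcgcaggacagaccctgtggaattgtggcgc
Fzd5, chr9:73614040-73614289 (- strand): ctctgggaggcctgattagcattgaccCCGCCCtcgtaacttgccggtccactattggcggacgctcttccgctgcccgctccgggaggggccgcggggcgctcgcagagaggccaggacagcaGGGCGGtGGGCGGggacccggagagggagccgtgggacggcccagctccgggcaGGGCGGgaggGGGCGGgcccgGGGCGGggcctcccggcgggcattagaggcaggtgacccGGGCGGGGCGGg
Fzd4, chr1:152692257-152692506 (+ strand): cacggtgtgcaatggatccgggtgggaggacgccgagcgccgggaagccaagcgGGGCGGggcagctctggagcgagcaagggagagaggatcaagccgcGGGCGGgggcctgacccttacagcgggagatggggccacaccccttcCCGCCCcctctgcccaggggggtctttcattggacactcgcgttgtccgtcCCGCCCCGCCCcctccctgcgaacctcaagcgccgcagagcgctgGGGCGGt

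The capitals in these sequences are all GC boxes. Fzd5 holds 8 and Fzd4 holds 6, counting boxes that share a base separately, while Fzd1 and Fzd8 hold none. Among members of other roles, Ror2 (higher RNA after AngII) holds 6 and Wnt9a (lower) holds 5. Axin2 and Apc (higher) and Wnt5a (lower) hold none. A link between GC boxes and the direction of RNA was not tested. A GC box was present in 30.5% of all 33469 promoters of the same length and in 18 of the 34 members' promoters in the table. Fzd1 is GC-rich all the same, with 63.6% G and C, as is Fzd8 with 63.6%, against a median of 51.2% over all promoters. The median over the 34 members' promoters was 64.2%. The other 6 motifs were found in none of these 4 sequences, which says only that those letters are not in these windows. Their shares over all promoters were 27.5% for the TCF/LEF core, 4.05% for the AP-1 site, 1.59% for the cyclic AMP response element, 2.85% for the Egr site, 1.5% for the CArG box and 12.9% for the TATA box. Among the 34 members' promoters, 6 held the TCF/LEF core, 5 an Egr site, 2 an AP-1 site and 2 a TATA box, and none held a cyclic AMP response element or a CArG box. The 34 include Wnt2, Fzd7, Wif1, Nkd1, Tcf7 and Tcf7l2, whose RNA and marks were not analysed. Of these genes, Wnt2, Wif1 and Tcf7l2 held an Egr site, and Fzd7 and Nkd1 held the TCF/LEF core. A match is a description of the letters, not of a bound site. The promoter of Fzd2 is not shown.

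The 3 Frizzled genes with the highest estimates in control, of 7 measured, stood lower after AngII. Fzd2, Fzd8 and Fzd1 were all at least 2-fold lower with bounds that do not overlap, and none of the 23 expressed members stood 2-fold higher. Over all expressed symbols 2.96% were at least 2-fold lower and 3.89% at least 2-fold higher. With bounds apart as well the percentages were 1.58% lower and 2.71% higher. Among symbols with 10 FPKM or more in control, 2.28% were at least 2-fold lower.

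Fzd2, a receptor of Wnt5a and other ligands (chromosome 10, 91709178 to 91712641 on rn4), stood at 127 FPKM without AngII (bounds 93.7 to 159) and 47.2 FPKM with AngII (33.9 to 60.6). Its estimate was the highest of the measured Frizzled genes in both libraries, with bounds that overlap those of Fzd8 in control and of Fzd6 after AngII. The log2 ratio was -1.40. Its control level was 2.68 times the AngII level, and the lower control bound was 1.55 times the upper AngII bound.

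Fzd8, a receptor of the beta-catenin branch (chromosome 17, 65968738 to 65971724), stood at 67.7 FPKM without AngII (39.3 to 96.0) and 23 FPKM with AngII (13.4 to 32.6). The bounds were apart by a factor of 1.21, the narrowest gap of the 3 receptors, and the log2 ratio was -1.52. Fzd1 (chromosome 4, 25994422 to 25998821) stood at 46.1 FPKM without AngII (26.7 to 65.4) and 10.9 FPKM with AngII (6.27 to 15.5). Its log2 ratio of -1.99 ranked 9 from the lowest among all 8354 expressed symbols, where Fzd8 ranked 41 and Fzd2 ranked 58. Its control level was 4.24 times the AngII level, with bounds apart by a factor of 1.73.

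Fzd1, Fzd2 and Fzd8 are encoded without introns in mammals, and their listed loci span 4399, 3463 and 2986 bp. Of 886 expressed symbols with a locus of their own under 5 kb, 4.51% were at least 2-fold lower. The 3 differences stayed past 2-fold when AngII values were centred, at -1.73 for Fzd1, -1.25 for Fzd8 and -1.13 for Fzd2.

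The other 4 Frizzled genes had bounds that overlap. Fzd6, which in mice acts in planar polarity, stood at 23.6 FPKM without AngII (13.8 to 33.4) and 26.2 FPKM with AngII (15.3 to 37.1), with a log2 ratio of 0.14. Fzd5 stood at 5.35 FPKM (3.65 to 7.05) and 8.50 FPKM (6.02 to 11.0), for a log2 ratio of 0.58. Fzd4, a receptor of vascular development that also binds norrin, stood at 7.31 FPKM (4.88 to 9.75) and 4.89 FPKM (2.97 to 6.80), for a log2 ratio of -0.50. The sign of Fzd4 held under each scaling. Both scalings raised the AngII values, so the signs of Fzd5 and Fzd6 could not change. Fzd9 was under 1 FPKM, at 0.154 and 0.319 FPKM.

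Summed over the 7 Frizzled genes with a locus, RNA was 277 FPKM without AngII and 121 FPKM with AngII. Fzd1, Fzd2 and Fzd8 together supplied 240 FPKM of the control sum and 81.1 FPKM of the AngII sum, which is 86.8% and 67.0%. The share of Fzd6 was 8.54% in control and 21.6% after AngII, and that of Fzd5 was 1.93% and 7.02%. Fzd2 held 45.7% and 39.0%. These shares are of point estimates. Fzd3 and Fzd7 are not part of these sums.

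**Figure D1:**
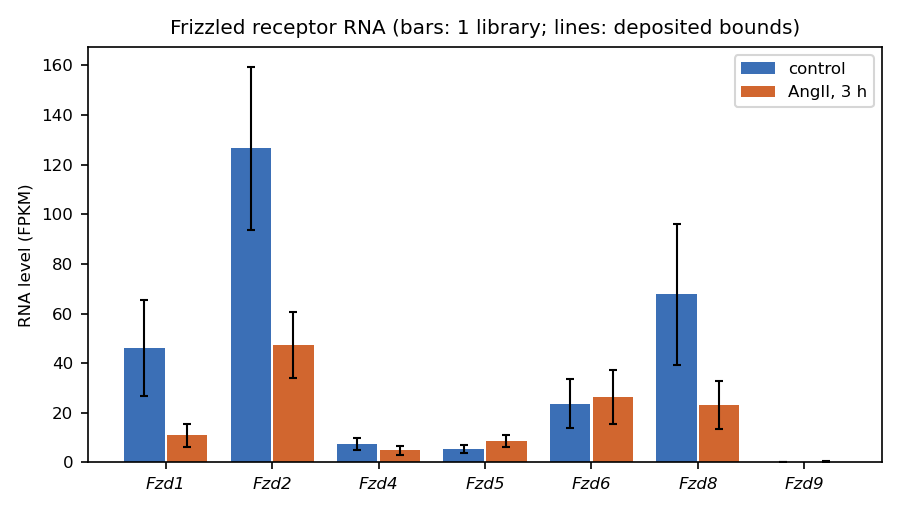
RNA level in FPKM of the 7 Frizzled genes with a locus, 1 library per condition, with lines for the deposited bounds. The bounds of control and AngII do not overlap for Fzd1, Fzd2 and Fzd8 and overlap for Fzd4, Fzd5, Fzd6 and Fzd9.

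Few Wnt ligands were expressed, and those that were stood lower after AngII, with overlapping bounds. Of 12 ligands with a locus 3 were expressed, against 8354 of all 14767 symbols with a locus. All 3 lay below 0 as deposited and under each scaling, with a median log2 ratio of -0.67 as deposited. Over all expressed symbols 70.0% lay below 0, with a median of -0.22, and 3 genes are too few to set their direction apart from that background. Wnt5a, the ligand of the Ror and Ryk receptors (chromosome 16, 3782024 to 3799625), stood at 2.90 FPKM without AngII (1.39 to 4.40) and 1.10 FPKM with AngII (0.445 to 1.76), for a log2 ratio of -0.89. Wnt9a stood at 1.86 FPKM (0.898 to 2.83) and 0.800 FPKM (0.334 to 1.26), for a log2 ratio of -0.67. Both would count as 2-fold lower with a pseudocount of 0.1. Wnt9a passed the minimum of 1 FPKM only in control, so that rule favoured its direction. Ligands under the minimum lay on both sides of 0, such as Wnt2b (0.23) and Wnt4 (-0.18).

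Wnt5b stood at 2.44 FPKM (1.45 to 3.44) and 1.29 FPKM (0.558 to 2.02), for a log2 ratio of -0.59. Its listed interval is shared with another locus, so that its marks are uncertain. The 9 ligands under 1 FPKM reached at most 0.532 FPKM, the AngII level of Wnt2b. Wnt7a, Wnt10a and Wnt10b were listed at 0 in both libraries.

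None of the 5 co-receptors and other receptors was past 2-fold. Ryk, a receptor with an inactive kinase domain, stood at 70.7 FPKM without AngII (41.3 to 100.07) and 63.3 FPKM with AngII (37.0 to 89.6), for a log2 ratio of -0.16 that was above 0 under centring. The co-receptor Lrp6 stood at 44.7 FPKM (25.7 to 63.7) and 32.1 FPKM (18.7 to 45.6), for a log2 ratio of -0.46. Lrp5 stood at 7.64 FPKM and 6.09 FPKM, for a log2 ratio of -0.29, at an interval listed for 9 loci. Lrp6 was thus the more abundant of the co-receptors in both libraries, with bounds apart from those of Lrp5.

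The receptor tyrosine kinases Ror1 and Ror2 lay on opposite sides of 0 as deposited and under each scaling. Both scalings raised the AngII values, so only the sign of Ror1 could have changed. Ror2 (chromosome 17, 17735998 to 17917032) stood at 3.01 FPKM without AngII (1.59 to 4.42) and 5.73 FPKM with AngII (3.21 to 8.25), for a log2 ratio of 0.75. Ror1 stood at 1.60 FPKM (0.771 to 2.43) and 1.16 FPKM (0.533 to 1.78), for a log2 ratio of -0.27. Bounds overlapped for both, and the difference between them was not tested.

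Among secreted regulators Sfrp2, Dkk3 and Rspo1 were expressed. Sfrp2, a decoy that binds Wnt ligands (chromosome 2, 175479319 to 175486865), stood at 17.2 FPKM without AngII (9.81 to 24.6) and 8.93 FPKM with AngII (4.88 to 13.0), for a log2 ratio of -0.87. Rspo1, an R-spondin that amplifies Wnt signals through Lgr receptors, stood at 8.95 FPKM (4.92 to 13.0) and 5.36 FPKM (2.81 to 7.90), for a log2 ratio of -0.65. Dkk3, a divergent Dickkopf protein, stood at 29.3 FPKM (17.2 to 41.5) and 24.1 FPKM (14.1 to 34.1), for a log2 ratio of -0.27 that was -0.005 under centring. All 3 stood lower with overlapping bounds, and 70.0% of all expressed symbols lay below 0.

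Dkk1 and Dkk2, which block Lrp5 and Lrp6, were at or below 0.0361 FPKM in both libraries. Sfrp4 stood at 0.255 and 0.232 FPKM, and Rspo3 at 0.843 and 0.667 FPKM. These 4 were under the minimum of 1 FPKM.

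Inside the cell, the components were split in direction. Ctnnb1, which encodes beta-catenin, had the highest estimate of the members in both libraries, at 175 FPKM without AngII (98.3 to 251) and 162 FPKM with AngII (91.3 to 232). The control bounds overlap those of Fzd2 and Ryk. Its log2 ratio of -0.11 was above 0 under centring. Nkd2, a Dishevelled-binding inhibitor, stood at 58.1 FPKM (33.3 to 82.8) and 32.7 FPKM (19.0 to 46.3), for a log2 ratio of -0.81.

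The scaffold Axin2, itself a widely used target of beta-catenin, stood at 0.994 FPKM without AngII (0.448 to 1.54) and 1.55 FPKM with AngII (0.751 to 2.35), for a log2 ratio of 0.35. Axin1 stood at 5.27 FPKM (2.92 to 7.62) and 7.64 FPKM (4.34 to 10.9), for a log2 ratio of 0.46. Apc stood at 7.0 FPKM (5.46 to 8.54) and 9.26 FPKM (7.14 to 11.4), for a log2 ratio of 0.36. The 3 parts of the destruction complex among the members thus stood higher after AngII as deposited, all with overlapping bounds. Both scalings raised the AngII values, so they could not change these signs. Axin2 passed the minimum of 1 FPKM only with AngII, so that rule favoured its direction. The higher levels do not extend to the complex as a whole. On the wider list of cytoplasmic transducers and destruction complex genes, 8 of 14 expressed genes lay below 0, Apc2 (-0.77) and Amer1 (-0.40) among them. Over all expressed symbols 70.0% lay below 0.

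Tcf7l1, usually a repressor of the TCF/LEF family, stood at 5.33 FPKM without AngII (2.82 to 7.85) and 9.12 FPKM with AngII (5.06 to 13.2), for a log2 ratio of 0.68. A second locus of the same symbol gave 5.02 and 8.87 FPKM, for a log2 ratio of 0.71. Lef1 was listed at 0 in control and 0.0288 FPKM with AngII.

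**Figure D2:**
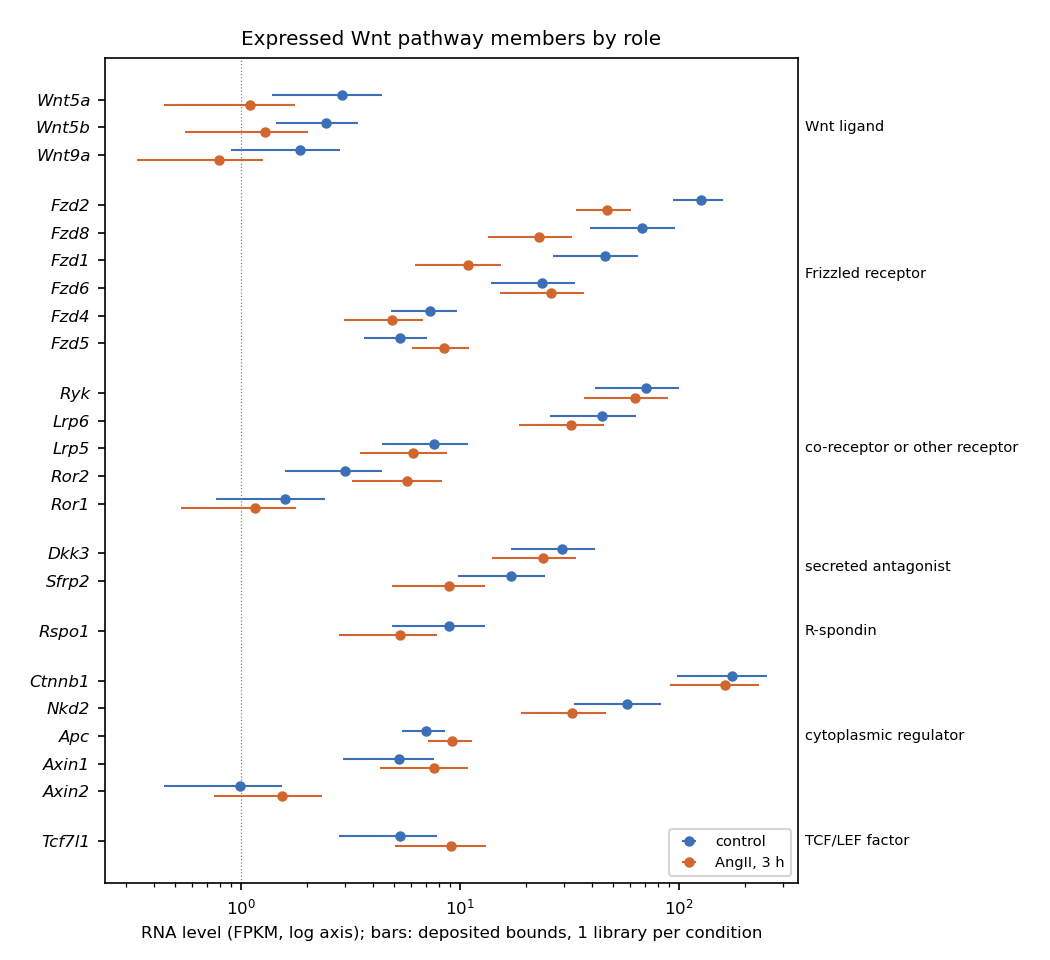
RNA level (FPKM, log axis) of the 23 expressed members in control and after AngII, grouped by role, with lines for the deposited bounds and 1 library per condition. The bounds separate for Fzd2, Fzd8 and Fzd1 and overlap for the other 20 members.

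Of the 23 expressed members 16 lay below 0 and 7 above, against 70.0% below 0 over all expressed symbols, so the balance of signs was near the background. The median was -0.29 against -0.22 over all expressed symbols. At a threshold of 1.5-fold 9 members were lower (Wnt5a, Wnt5b, Wnt9a, Fzd1, Fzd2, Fzd8, Sfrp2, Rspo1 and Nkd2), against 16.4% of all expressed symbols, and 2 were higher (Ror2 and Tcf7l1), against 7.94%. Under centring 14 members lay below 0 and 9 above, Ryk and Ctnnb1 having changed side. Ordered by control level, all 22 neighbouring pairs had overlapping bounds, so that only members further apart in the order can be ranked.

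**Figure D3:**
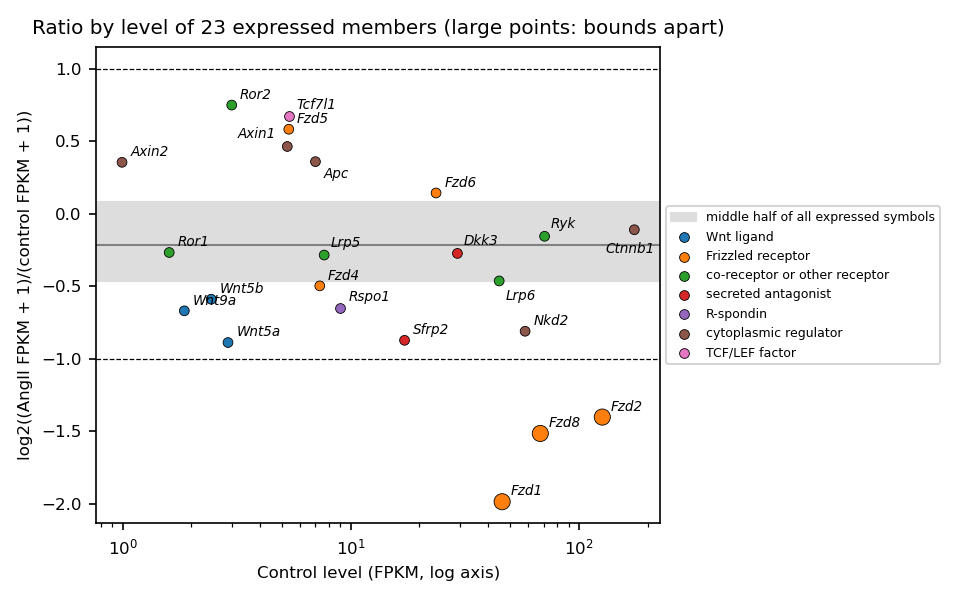
Log2 ratio of AngII over control against control level (FPKM, log axis) for the 23 expressed members, coloured by role; the grey band is the interquartile range of all 8354 expressed symbols, from -0.46 to 0.08. Fzd1, Fzd2 and Fzd8 lie below -1 at control levels of 46.1, 127 and 67.7 FPKM, and no member lies above 1.

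Lists of 99 further genes were chosen with earlier results of these data known, so their counts are a description and not a test. Of the 99 genes, 79 had a locus and 61 were expressed. Of these 61, 2 were at least 2-fold lower and 4 higher, against 2.96% and 3.89% of all expressed symbols. Their median log2 ratio was -0.03, against -0.22 over all expressed symbols. The 4 that were higher are all on the list of textbook targets of beta-catenin, where 12 genes were expressed, 4 were higher, 1 was lower and the median was 0.66, beside the same 3.89%, 2.96% and -0.22. They were Fosl1 (4.74), an AP-1 subunit, Cd44 (2.50), a hyaluronan receptor, the matricellular Ccn4 (1.21) and the mesenchymal factor Twist1 (1.19), with bounds apart for Fosl1 and Cd44. The levels of Fosl1 were 0.685 FPKM without AngII and 43.9 FPKM with AngII, and those of Cd44 were 11.8 and 71.4 FPKM. Ccn5, another matricellular protein at an interval shared with other loci, was lower (-1.11), and Myc (-0.12) and Ccnd1 (-0.44) were within 2-fold. Sp5, Notum, Tnfrsf19 and Mmp7, on the same list, were at or below 0.0596 FPKM in both libraries. Lgr5, an R-spondin receptor and stem cell marker, stood at 0.276 FPKM without AngII and 1.33 FPKM with AngII, with bounds apart and a log2 ratio of 0.87 below the 2-fold rule. Rnf43, a ubiquitin ligase that removes Frizzled receptors and is also on the target list, stood at 0.921 and 0.107 FPKM at an interval shared with other loci, with bounds apart and a log2 ratio of -0.80. Rnf43 was named after its values were seen. Fosl1 and Lgr5 passed the minimum of 1 FPKM only with AngII, where they were higher, and Rnf43 passed it in neither library. The minimum thus bears on the count and the median of the target list.

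Of 7 expressed genes on the list of other ligands, receptors and secreted regulators, 0 were past 2-fold. Besides Lgr5 the largest log2 ratios were those of the decoy Sfrp5 (-0.67), Tpbg (0.50) and the decoy Frzb (-0.47). Wls, the carrier that brings Wnt ligands to the cell surface, was abundant at 439 FPKM without AngII and 338 FPKM with AngII, for a log2 ratio of -0.38. Porcn, the enzyme that adds the lipid to Wnt ligands, had a log2 ratio of -0.44, followed by Vps26a (-0.29) and Vps29 (-0.03), and 0 of 5 secretion genes were past 2-fold.

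Among 14 expressed transducers Dact3, a Dishevelled antagonist, was lower at 37.2 and 17 FPKM, for a log2 ratio of -1.08 with overlapping bounds. It was followed by Apc2 (-0.77), at an interval shared with other loci, Amer1 (-0.40) and Tnks (-0.27). None of 13 nuclear cofactors was past 2-fold, with Cby1 (-0.57), Tle3 (0.40), Tle4 (0.36) and Tle5 (-0.36) furthest from 0. None of 11 expressed planar polarity and calcium genes was either, with Nfatc3 (-0.96, shared interval), Vangl1 (0.74), Vangl2 (-0.46) and Prickle2 (-0.39) furthest from 0.

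H3K4me3, a mark of promoters, was taken as present where a region lay within 1 kb of the locus. It was found at 37 of 38 members in control (97.4%, exact Clopper-Pearson 95% interval 86.2 to 99.9) and 36 after AngII (94.7%, 82.3 to 99.4), against 76.9% and 76.2% of all symbols with a locus. Intervals cover counting error only. Of 21 expressed members with a locus of their own, 20 had it in control and 19 after AngII, against 95.2% of such symbols in both conditions. At Ctnnb1 the nearest region lay 10.8 kb from the listed locus in control and 12.5 kb after AngII. The region of the other mark, H3K36me3, over Ctnnb1 began inside that H3K4me3 region in both conditions. Whether the listed locus holds the start of the gene was not tested. At Tcf7l1 a narrow region of 765 bp in control had no counterpart within 1 kb after AngII. It was a weak region, with 9.71% of its list below it in score. The nearest AngII region lay 4.96 kb away and overlaps the listed interval of Tgoln2, which a region touched in control too. Tcf7l1 has a second listed locus, whose marks were not counted, so a change at its promoter cannot be read from this.

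The 3 lower Frizzled genes kept wide H3K4me3 regions of high score in both lists. At Fzd2 the region was 7803 bp wide in control and 8320 bp after AngII, at Fzd8 it was 6579 and 6880 bp, and at Fzd1 it was 4590 and 4800 bp. In control 96.7% of all regions had a lower score than that of Fzd2, 97.7% than that of Fzd8 and 95.8% than that of Fzd1. After AngII the percentages were 89.3%, 94.8% and 91.1%. Scores are the authors' own and rank regions within a list, so a rank shows no change between lists.

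H3K36me3, a mark of transcribed gene bodies, covered 100% of the listed loci of Fzd1, Fzd2 and Fzd8 in both conditions. The regions were wider than these short loci, so that the cover could hardly differ. In control 85.5% of H3K36me3 regions had a lower score than that of Fzd2, 92.2% than that of Fzd8 and 78.6% than that of Fzd1. After AngII the percentages were 57.5%, 89.9% and 66.3%, again as ranks within each list.

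Members listed under 1 FPKM carried H3K4me3. Of 15 members under 1 FPKM in both libraries 13 had a locus of their own, and all 13 had an H3K4me3 region in control and after AngII (100%, 75.3 to 100). Over all 4918 symbols with a locus of their own at such levels, 39.5% had the mark in control and 39.1% after AngII. Among the 3280 of them whose span lies within that of these 13 members, 45.3% had it in control. The 13 are Wnt2b, Wnt4, Wnt6, Wnt7a, Wnt10a, Wnt11, Wnt16, Fzd9, Sfrp4, Dkk1, Dkk2, Rspo3 and Lef1.

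The 7 of them under 0.1 FPKM in both libraries (Wnt6, Wnt7a, Wnt10a, Wnt16, Dkk1, Dkk2 and Lef1) also had the mark in both, against 30.2% and 29.7% of symbols at such levels. H3K36me3 touched 3 of the 13 in control and 4 after AngII, against 20.4% and 25.6% of all symbols at such levels with a locus of their own, and none of these 7. Lef1, at 0 and 0.0288 FPKM, had an H3K4me3 region of 7038 bp in control and 7040 bp after AngII. Dkk1 had regions of 1989 and 1920 bp, and Wnt7a of 2295 and 1440 bp. Over the 13 genes the widest region per gene had a median of 3519 bp in control and 2720 bp after AngII, against 4820 bp over the 20 expressed members with a region at a locus of their own in control and 4320 bp over the 19 after AngII.

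Wnt6 and Wnt10a are neighbours on chromosome 9 (74104363 to 74117995 and 74124402 to 74137508). Wnt6 had 2 H3K4me3 regions in each list and Wnt10a had 3, while neither reached 0.1 FPKM and neither had H3K36me3. H3K4me3 is known to mark CpG-rich promoters whether or not they are active. The promoters of 11 of the 13 genes are in the RefSeq table, with a median of 63.2% G and C and an observed over expected CpG of 0.713, against 51.2% and 0.383 over all promoters. The part of base composition in the count was not tested.

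H3K36me3 touched 25 of 38 members in control (65.8%, 48.6 to 80.4) and 29 after AngII (76.3%, 59.8 to 88.6), against 69.9% and 72.7% of all symbols with a locus. Among the 21 expressed members with a locus of their own it touched 18 in control and 21 after AngII, against 94.6% and 96.9% of such symbols. Of these 21, 5 had a cover more than 20 points higher after AngII and 0 more than 20 points lower. Over all 6452 expressed symbols with a locus of their own, 8.2% were higher by that much and 2.29% lower. Mean cover of the 21 was 74.3% in control and 95.6% after AngII, against 86.3% and 90.1% over all such symbols.

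At Sfrp2 cover was 0% in control and 100% after AngII, while its RNA stood lower. Wnt9a had 0% and 94.5%, and Wnt5a 0% and 84.1%, again with lower RNA. In control the nearest H3K36me3 region lay 169 kb from Sfrp2, 152 kb from Wnt5a and 58.1 kb from Wnt9a.

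The AngII regions at these 3 genes were among the weakest of their list. Only 0.368% of AngII regions had a lower score than the one at Wnt5a, 3.93% than the one at Sfrp2 and 5.25% than the one at Wnt9a. Their scores of 5.13, 5.59 and 5.69 lay below 6.44, the lowest score in the control list, and the AngII list went down to 4.90. No source used here says whether the lists share a scale. Without AngII regions at or below the lowest control score, 2 of the 5 members remained, Ror2 and Axin2, against 6.37% of all such symbols. The part of the calling threshold in these differences was not tested.

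Ror2 and Axin2 had both higher RNA and higher cover. At Ror2 cover was 22.7% in control, in 5 separate regions, and 96.7% after AngII, in 2 regions of 103572 and 74528 bp. At Axin2 cover was 44.0% in control and 99.8% after AngII. The Axin2 region of AngII had 45.4% of its list below it in score, and the Ror2 regions had 26.4% and 18.4%. Rspo1 went from 66.7% to 86.6%, a difference of 19.9 points just under the rule.

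Of the members under 1 FPKM, Wnt4 had 27.7% in control and 100% after AngII, and Wnt2b and Fzd9 had 100% in both. These covers came from regions wider than the gene. The Wnt2b region of 187302 bp in control also spans the listed interval of St7l and Capza1, and the Fzd9 region of 78337 bp extends over Baz1b. At Wnt4 the AngII region of 81652 bp runs to 156143522 on chromosome 5, past the listed end of the gene at 156085478. Wnt11 had 0% and 4.42%.

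**Figure D4:**
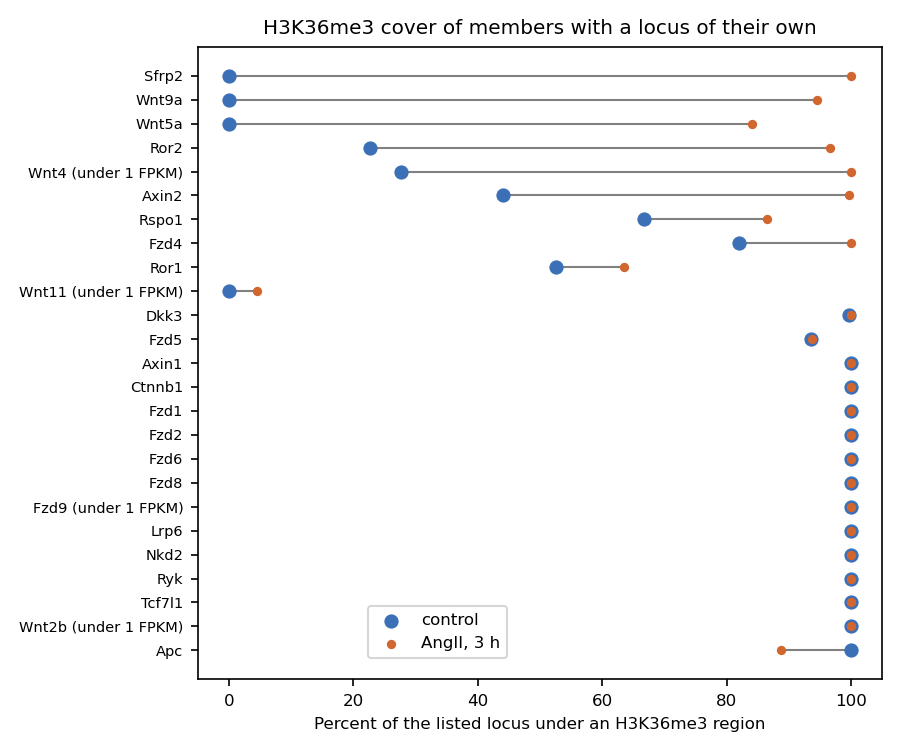
Percent of the listed locus under an H3K36me3 region for the 25 members with a locus of their own and cover in at least 1 condition, control and AngII joined by a line. Sfrp2, Wnt9a and Wnt5a go from 0% to 84.1% or more, Ror2, Wnt4 and Axin2 start between 22.7% and 44.0%, and Apc is the member with lower cover, 100% and 88.7%.

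Around Fzd2, listed loci without a matched gene symbol stood lower after AngII together with the receptor. Loci without a symbol include those with a deposited name that matched no symbol: 22296 loci had a name and 16252 matched. They are therefore not all unannotated transcripts, here or in the shares over all such loci. Within 10 kb of Fzd2 lay 11 such loci at 7 distinct intervals, of which 10 loci lie before its listed start and 1 beyond its end. All 11 were below 0, from 0.482 to 4.75 FPKM in control and from 0 to 0.870 FPKM with AngII. The bounds were apart for 9, against 7.72% of all 14150 loci without a symbol above 0 FPKM and 10% of the 9604 at 0.4 to 5 FPKM in control. Of these 9, 3 were listed at 0 after AngII with bounds of 0.

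The locus XLOC_004406 had the highest estimate, 4.75 FPKM without AngII (3.37 to 6.12) and 0.870 FPKM with AngII (0.445 to 1.3), for a log2 ratio of -1.62. Together with 4 further pieces it is listed from 91687184 to 91700439 on chromosome 10, ending 8.74 kb before Fzd2. These 5 pieces share their coordinates and are not independent. The piece closest to Fzd2 on that side, XLOC_005838 (0.754 kb away), stood at 2.76 FPKM without AngII (0.855 to 4.67) and 0.359 FPKM with AngII (0 to 0.773). Strand is not given in the table, so whether these pieces belong to the Fzd2 transcript or to another was not tested.

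The H3K36me3 region at Fzd2 ran from 91688624 to 91735154 in control and from 91689253 to 91761040 after AngII, over most of this stretch. A separate H3K4me3 region touched the interval of the 5 pieces in each condition. Each of the 11 loci touched the same kinds of region in both conditions while its RNA stood lower.

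**Figure D5:**
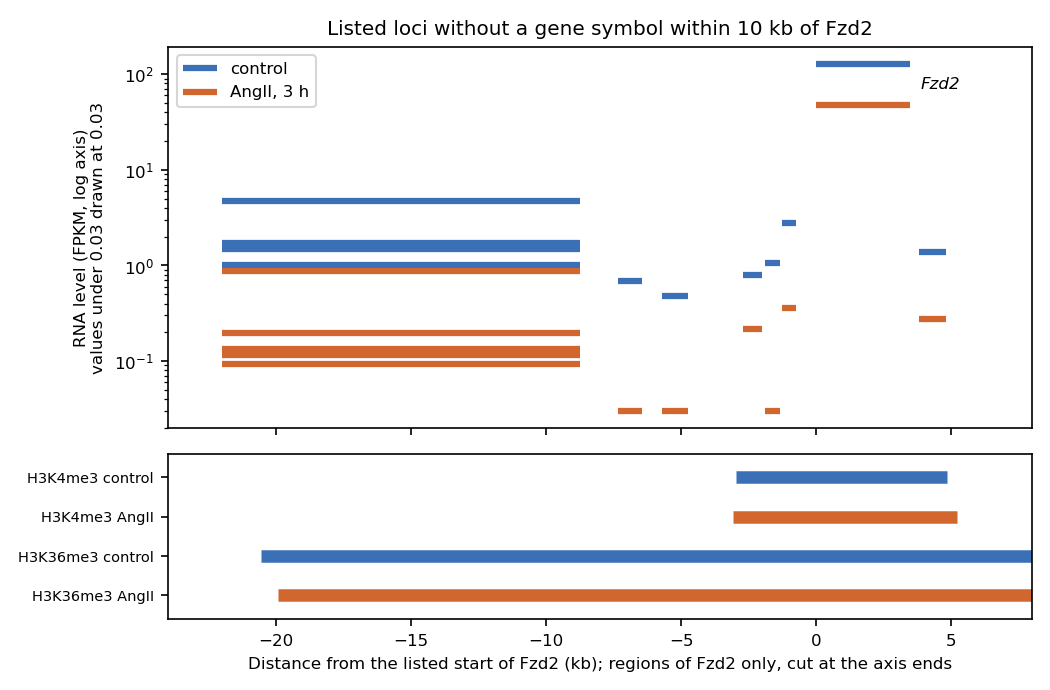
Upper panel, RNA level (FPKM, log axis) of Fzd2 and of the 11 loci without a symbol within 10 kb, each drawn over its listed span at its distance in kb from the listed start of Fzd2. Lower panel, the H3K4me3 and H3K36me3 regions at Fzd2. Every AngII level lies below the control level of the same locus, the H3K4me3 regions cover nearly the same stretch, and the H3K36me3 region is 46531 bp wide in control and 71788 bp after AngII.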

How the data were processed

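RNA levels are FPKM values that the authors deposited in 1 table for both conditions, with lower and upper bounds. The copies deposited with the 2 RNA samples were identical byte for byte. Per the submitters' processing notes, the tools were TopHat, Cufflinks, Cuffdiff and Bowtie on the assembly rn4, with no versions. Ribosomal RNA was removed, per the labels' protocols. In the H3K4me3 and H3K36me3 lists each region has a deposited score, and regions are made of bins of 153 to 589 bp that differ between lists. The region caller and the sequencing depth are not given in the sources used here, so precision is known only through the deposited bounds.

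RefSeq accessions were matched to symbols with a RefSeq table of GRCr8, used for names only. A name was present at 22296 of 30937 loci, 16252 matched and 16025 matched exactly 1 symbol. Loci without a symbol are all those that matched none, with or without a name. Of 30937 loci, 30922 had a usable estimate in both libraries. The ratio used a pseudocount of 1 FPKM and a minimum of 1 FPKM in at least 1 library. Samples were grouped by their titles. H3K4me3 was counted within 1 kb of a locus and H3K36me3 by overlap and by percent of the locus covered. The ratio and cover functions were tested on simulated data. Python 3.11.15, pandas 2.3.3, NumPy 2.4.6, SciPy 1.17.1 and matplotlib 3.10.9 were used.

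The members and lists were chosen with earlier results of these data known. Every expressed member is named, with up to 4 genes per pathway list by absolute log2 ratio. Ccn5, Myc, Ccnd1, Sp5, Notum, Tnfrsf19, Mmp7 and the loci beside Fzd2 were named after their values were seen. The same holds for the 20-point rule, the split by span and the 10 kb window. Alternatives varied the pseudocount, the FPKM minimum, the scaling, the locus chosen, the threshold, the distance and the region score. The levels of a further marker list are not reported here.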

Additional observations from a re-analysis of the deposited data

How the results depend on the processing

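The count of 3 members at least 2-fold lower (Fzd1, Fzd2 and Fzd8) stayed at 3 with a pseudocount of 5, without an FPKM minimum, with a minimum of 5, under both scalings, with summed loci, with loci of their own coordinates and with bounds that do not overlap. It was 5 with a pseudocount of 0.1 and 9 at a threshold of 1.5-fold, where the members at least as much higher numbered 2 in place of 0. These settings lower the bar by construction. The median log2 ratio ranged from -0.43 with a pseudocount of 0.1 to -0.04 without an FPKM minimum. The settings on H3K36me3 cover and on silent genes were added after seeing the data. The count of 5 of 21 members with cover more than 20 points higher was 2 with regions above the lowest score quartile of each list. The share over all such symbols was then 9.93%, so that this count was near the background. With AngII regions above the lowest control score the count was also 2, against 6.37%. Of 48 recomputed summary values 43 stayed within their interval, or within 1.5 times for counts, and 5 moved. All 115 recomputed member ratios stayed within the range of the deposited bounds. That range is wide, so this is a weak check. Within it Ryk and Ctnnb1 changed side under centring, and Wnt5a was -1.32 with a pseudocount of 0.1 and -0.37 with 5. No paired analysis was possible because 1 library stood for each condition, and for the same reason no library could be left out.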

Other observations

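Loci without a symbol beside 2 other Frizzled genes, named after their values were seen, also differed. Beyond Fzd6, whose own RNA was within 2-fold, 2 pieces listed at the interval from 74599552 to 74607886 on chromosome 7 stood lower: XLOC_025247 at 2.46 FPKM without AngII (0.974 to 3.95) and 0.535 FPKM with AngII (0.0999 to 0.969), and XLOC_026565 at 0.889 FPKM and listed at 0. Beside Fzd5, XLOC_028772 (chromosome 9, 63340822 to 63377363, 4.94 kb away) stood higher, at 10.3 FPKM without AngII (6.76 to 13.8) and 23.4 FPKM with AngII (15.1 to 31.6). Over all members other than Fzd2, 22 such loci lay within 10 kb, with bounds apart for 2 that stood lower and 1 that stood higher. The 2 lower ones are the pieces beside Fzd6, which share their coordinates. Of all loci without a symbol above 0 FPKM, 7.72% stood lower with bounds apart, as did 10% of those at 0.4 to 5 FPKM in control. The count of lower loci was thus near the background. No such share was taken for higher loci.

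The widest H3K4me3 region of some members differed between the lists, in both directions. At Ryk it was 3978 bp in control and 9440 bp after AngII, and at Wnt10a 3825 and 6400 bp. At Wnt9a it was 7650 bp in control and 2880 bp after AngII, and at Axin2 6732 and 4000 bp. Regions were called separately in each list, with bins of 153 bp in control and 160 bp after AngII, and these widths have no replicate.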
